A study of Mus musculus with 9 samples.

Results

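The RNA of regulatory T cells (Treg cells) from the spleens of 5 control mice was described gene by gene, with no comparison to another genotype. The 5 libraries were chosen by their label as WT and make up 5 of the 9 samples of the series. All 5 mice were females of 2 to 3 months of the strain B6N.Foxp3YFP-Cre, in which Cre recombinase and a yellow fluorescent protein are made from the Foxp3 locus, so the controls also carry the Cre and reporter allele. The cells were sorted from spleen as CD4+Foxp3-YFP+, and total RNA of each mouse went into 1 library with a stranded TruSeq kit. The labels do not say whether these females carried the allele on 1 or both X chromosomes. The other 4 libraries of the series carry a floxed Esrrg gene in addition and were not used here. Each library is 1 mouse, and the 5 mice are called WT 1 to WT 5 after their replicate numbers.

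Treg cells are CD4 T cells that restrain immune responses. Their defining transcription factor is Foxp3, they carry the high-affinity interleukin-2 receptor chain Il2ra without making much interleukin-2 themselves, and they display the inhibitory receptor Ctla4. Most Treg cells of a young spleen are resting cells that recirculate through lymphoid tissue, and a smaller part has an activated or effector form. Resting T cells are known to rely on mitochondrial oxidation and to raise glycolysis and lipid synthesis on activation.

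Levels are given as CPM, the counts of a gene relative to the library total, written as mean ± SD over the 5 mice (n = 5). Where genes are compared with each other, counts were divided by the length of the gene's exons and rescaled to a common total (TPM). A gene was called expressed at 1 or more CPM in each of the 5 libraries and silent below 0.1 CPM in the 5 libraries pooled. Library totals ran from 15269014 counts in WT 4 to 16874301 in WT 1. Of 26683 genes in the table, 11381 (42.7%) were expressed, 10356 (38.8%) were silent, and 4946 lay between. A count of 0 in all libraries allows up to 0.0371 CPM (3 counts of the pooled total, counting error alone). Against these shares, 122 of 200 listed transcription factor genes, 137 of 192 receptor genes and 158 of 218 metabolic genes were expressed. Leaving out any 1 library moved these counts to 122 or 123, 137 or 138 and 158 or 159. The median TPM of the expressed members was 70.2, 73.7 and 52.1, beside 31.5 over all expressed genes. WT 1 and WT 2 stood apart from the other 3 libraries in many genes, so values that rest on them are also given without them. The median CV (coefficient of variation, SD over mean) of the expressed genes was 6.59% over all 5 libraries and 4.51% over WT 3, WT 4 and WT 5.

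The 4 Treg markers were expressed in every library. Foxp3 (mm10, chromosome X, 7573644 to 7595245, plus strand) stood at 523, 598, 596, 579 and 568 CPM in WT 1 to WT 5. Il2ra (chromosome 2, 11642807 to 11693193, plus strand) stood at 706, 909, 902, 875 and 835 CPM in WT 1 to WT 5. Ikzf2 (chromosome 1, 69531214 to 69687245, minus strand), the Ikaros family factor Helios of thymus-derived Treg cells, stood at 961, 1031, 999.5, 1038 and 1056 CPM in WT 1 to WT 5. The 3 genes were lowest in WT 1, and their values in the other 4 libraries lay close together. Ctla4 (chromosome 1, 60887000 to 60915832, plus strand) behaved in the opposite way, at 573, 446, 398, 345 and 328 CPM in WT 1 to WT 5, so that the highest library had 1.75 times the level of the lowest. Per length the order was Ctla4 (658 ± 149 TPM), Il2ra (544 ± 54.4 TPM), Foxp3 (460.00 ± 25.7 TPM) and Ikzf2 (322 ± 13.6 TPM) over the 5 libraries. Without WT 1, Il2ra had 567 ± 17.8 TPM and Ctla4 599 ± 78.6 TPM, and the gap between them was smaller than the SD of Ctla4. Each of these 4 genes shares part of its locus with another gene of the annotation, and whether counting used strand was not stated.

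T cell lineage genes varied little between the mice. All 12 listed T lineage genes were expressed, with a median CV of 2.25%, beside 6.59% over all expressed genes. Among expressed genes of 100 to 1000 CPM the median CV was 4.01%. In 8 of the 12 genes the variance over the mice exceeded 3 times that of counting alone, beside 39.7% of all expressed genes. The coreceptor gene Cd4 stood at 922, 926, 910.1, 920.2 and 929.7 CPM in WT 1 to WT 5. The kinase gene Lck, which starts signalling from the T cell receptor, reached 924 ± 12.5 CPM, and Cd3e, a signalling chain of that receptor, 497 ± 6.98 CPM. The constant region genes of the receptor were the most abundant of the list per length, Trbc2 at 4779 ± 72.5 TPM, Trac at 3115 ± 100.1 TPM and Trbc1 at 2498 ± 99.8 TPM.

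Of the lists of defining genes of other blood and spleen cells, those of plasma cells and macrophages had most genes expressed. The others had 40% or fewer, beside 42.7% over all genes of the table. Expressed were 2 of 5 CD8 T cell genes, 2 of the 5 natural killer cell genes in the table, 1 of 7 B cell genes, 5 of 7 plasma cell genes, 1 of 8 granulocyte genes, 1 of 6 dendritic cell genes, 1 of 6 erythroid genes, 1 of 5 platelet genes and 1 of 6 stromal and endothelial genes. Cd8a summed to 34 counts over the 5 libraries (0.4202 CPM), although its partner Cd8b1 stood at 9.204 to 13.2 CPM. The B cell genes Ms4a1 and Cd79a summed to 38 and 105 counts, while Cd79b was expressed at 15.7 to 18.6 CPM. Ighm, the constant region of immunoglobulin M, was far above that level in every mouse at 784, 809, 800.5, 762 and 792 CPM in WT 1 to WT 5, within a narrow range. The light chain gene Igkc at 211, 88.96, 136, 98.04 and 67.9 CPM in WT 1 to WT 5 and the antibody-joining chain gene Jchain at 61.5, 24.03, 40.4, 27.4 and 14.1 CPM in WT 1 to WT 5 did differ, both being highest in WT 1. Xbp1 and Prdm1, also expressed genes of the plasma cell list, were not highest there. Each library had 0.950 to 1.06 (Xbp1) and 0.849 to 1.09 (Prdm1) times the median of the other libraries. Pecam1, an adhesion gene best known from endothelium and platelets and also found on leukocytes, stood at 197, 217, 234, 232 and 214 CPM in WT 1 to WT 5, whereas the endothelial gene Cdh5 summed to 10 counts and the collagen gene Col3a1 had 0. The platelet genes Pf4, Ppbp, Gp1bb and Gp9 were silent with 2, 3, 3 and 1 counts, whereas Itga2b of the same list was expressed at 2.58 to 3.56 TPM. All 8 macrophage genes passed 1 CPM in each library, with a summed level of 77.9 CPM in WT 1 and 25.9 to 47.02 CPM in the other libraries. Since these are bulk samples, fewer cells of a type and less RNA per cell cannot be told apart.

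The 10 most abundant genes by CPM served a range of functions. The elongation factor gene Eef1a1 led by CPM at 7047 ± 347 CPM, followed by the mitochondrial cytochrome oxidase gene mt-Co1 (6746 ± 713 CPM), beta-actin Actb (5773 ± 598 CPM), the class I histocompatibility gene H2-K1 (4441 ± 111 CPM) and the elongation factor gene Eef2 (4175 ± 140.1 CPM). These and the next 5 genes, mt-Cytb, Shisa5, Tmsb4x, Ddx5 and Ptprc, held 4.29% ± 0.0759 of all counts. The first 100 genes held 16.3% and the first 1000 held 50.5%. T cell genes stand high in this order: Ptprc, the CD45 phosphatase, had 2723 ± 60.02 CPM, and Ets1, a transcription factor of lymphocytes, had 2332 ± 45.5 CPM at rank 15. Arhgef1, Hmha1 and Coro1a, which act on the actin skeleton and its small GTPases, had 2666 CPM, 2126 CPM and 2009.96 CPM.

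Dividing by exon length changed the order. By TPM, mt-Co1 led at 16040.5 ± 1653 TPM, and the short transcripts of Rplp1 (10384 ± 256 TPM), B2m, the light chain of class I molecules (9949 ± 339.7 TPM), and Tmsb4x, an actin-binding peptide (7687 ± 311 TPM), joined Eef1a1 (10384 ± 419 TPM). The very short gene models Gm23935 and Mir6236 also rank here, with only 165 CPM and 302 CPM, so their TPM rests on length. The 90 ribosomal protein genes together held 5.104% ± 0.187 of counts and the mitochondrial genome 1.65% ± 0.206. The rows mt-Co3, mt-Atp6 and mt-Nd3 were at 0 in every library beside 6746 CPM for mt-Co1, and the handling of reads that match several places was not stated, so these zeros are not read as silence.

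**Figure D1:**
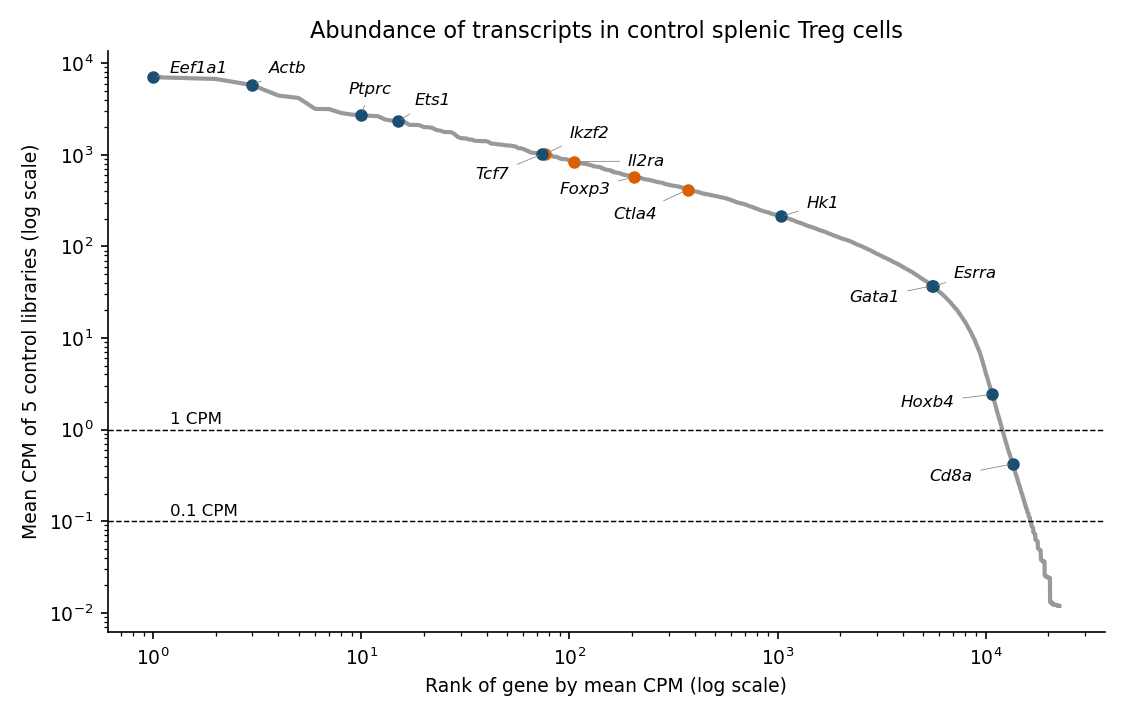
Mean CPM over the 5 control libraries (log axis) against the rank of each gene with a count (log axis), with named genes marked and dashed lines at 1 and 0.1 CPM. The curve falls from Eef1a1 at rank 1, the 4 Treg markers lie between 418 CPM for Ctla4 and 1017 CPM for Ikzf2, and Gata1, Hoxb4 and Cd8a lie further down.

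Among transcription factors, the Treg and resting T cell list was expressed as a whole, 17 of 17 genes. Tcf7, the factor TCF-1 of resting and memory T cells, led per length at 1427 ± 63.5 TPM, followed by Ets1 at 1011 ± 19.5 TPM, Klf2, which drives genes of lymphocyte recirculation, at 666 ± 152 TPM and Foxp3 at 460.00 ± 25.7 TPM. With the longest transcript as length the first 2 changed places, Ets1 at 1274 TPM and Tcf7 at 1145 TPM. Tcf7 stood at 1077, 966, 1039, 1002 and 1013 CPM in WT 1 to WT 5. Klf2 stood at 474, 301, 313, 303 and 283 CPM in WT 1 to WT 5, with WT 1 above the narrow range of the other 4 libraries. Without WT 1 it had 598 ± 24.03 TPM. In the list of helper and effector lineage factors 14 of 15 genes were expressed, led by the hypoxia factor gene Hif1a (174 ± 13.2 TPM), Gata3, of type 2 helper cells (145 ± 14.1 TPM), Batf, of effector Treg cells (131 ± 16.7 TPM), and Ikzf3 (125 ± 3.98 TPM), with Ikzf3 first where the longest transcript served as length. Tbx21, the defining factor of the type 1 helper lineage, was far lower at 12.3 ± 1.81 TPM. The exception was Pparg, a factor of fat tissue Treg cells, with 82 counts in all.

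Within several families 1 paralogue made up most of the summed TPM. Tcf7 made up 92.6% ± 0.455 of the summed TPM of the TCF/LEF factors, with Lef1 at 7.01% ± 0.392. Foxp3 made up 69.3% ± 1.53 of the FOXP factors, ahead of Foxp4 (19.04% ± 1.29) and Foxp1 (11.6% ± 0.519), while Foxp2 had 2 counts in all. Foxo1, which holds T cells in the resting state, made up 59.3% ± 1.48 of the FOXO factors and Foxo6 was silent. The Ikaros family was shared between Ikzf1 (35.2% ± 0.659) and Ikzf2 (32.97% ± 0.674), followed by Ikzf4, the factor Eos (16.9% ± 0.761), and Ikzf3 (12.9% ± 0.277). Ikzf1 was above Ikzf2 in each of the 5 libraries with the union of exons as length, but with the longest transcript as length Ikzf2 led, at 32.4% against 30.9%. Nfatc1 (41.1% ± 1.25) and Nfatc3 (31.4% ± 0.843) led the calcium-controlled NFAT factors, and Nfatc4 was silent. Stat6 (28.5% ± 0.839) and Stat5b (24.4% ± 0.606) led the STAT factors, Stat5b being the main relay of interleukin-2 with Stat5a (7.65% ± 0.309). All 7 STAT genes were expressed, as were the 9 IRF, 5 NF-kB and 4 RUNX list genes.

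The remaining families added members of general T cell use. Irf1 (32.5% ± 1.13) led the interferon regulatory factors, and Irf4, which Treg cells need for their effector form, made up 6.77% ± 1.04. Rela (29.6% ± 0.702), Nfkb1 (24.4% ± 0.397) and Nfkb2 (17.6% ± 0.389) shared most of the NF-kB factors, and Nfkb1 led at 45.4% with the longest transcript as length. Of the RUNX list, Cbfb, the common partner of the RUNX proteins, had 175 ± 7.46 TPM, Runx3 40.9 ± 2.01 TPM and Runx1 37.7 ± 1.93 TPM, the last 2 being close in level. Smad4, the shared partner of the signal-carrying SMAD proteins, led its family at 34.2% ± 2.86, followed by the inhibitory member Smad7 (26.8% ± 3.65) and by Smad3 (20.4% ± 0.909). Smad6 and Smad9 were silent. Among inhibitors of E proteins, Id3 stood at 60.4, 76.04, 86.4, 82.9 and 84.1 CPM in WT 1 to WT 5 and Id2 at 46.4, 33.8, 30.6, 24.2 and 27.1 CPM in WT 1 to WT 5. Id3 was lowest and Id2 highest in WT 1. Of the Myc network, Myc had 222 ± 11.6 TPM and its antagonist Mxd4 196 ± 14.9 TPM, in the reverse order with the longest transcript as length, and Mlxipl, the glucose-responsive factor of liver, was silent. In the KLF family, Klf2 made up 50.6% ± 0.968, followed by Klf13 (14.9% ± 2.19), Klf6 (13.2% ± 3.43) and Klf3 (10.5% ± 1.56). Klf6 stood at 421, 159.96, 158, 183 and 164 CPM in WT 1 to WT 5, apart in WT 1, and Klf5, Klf14 and Klf15 were silent.

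The erythroid and megakaryocyte factor Gata1 (chromosome X, 7959260 to 7978071, minus strand) was expressed in all 5 libraries, at 31.8, 36.2, 39.9, 43.5 and 34.6 CPM in WT 1 to WT 5. It made up 27.9% ± 4.08 of the summed TPM of the GATA family, beside 71.9% ± 3.94 for Gata3. The highest library had 1.37 times the level of the lowest, and Gata1 does not overlap another annotated gene. The erythroid genes Alas2 and Klf1 summed to 15 and 21 counts, and Hbb-bs, a beta-globin gene, stood at 1.77 to 6.62 CPM. The order of libraries was not the same for both, since Hbb-bs was highest in WT 5 and Gata1 in WT 4.

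The developmental factor families were largely silent. Of 29 listed HOX genes in the table only Hoxb4 was expressed, at 2.25, 3.16, 2.62, 1.703 and 2.396 CPM in WT 1 to WT 5. None of 6 PAX genes was expressed, and Pax5, the B cell factor, with 108 counts was the only one not silent. Among 14 SOX genes, Sox4 (18.2 ± 1.47 CPM) and Sox12 (5.45 ± 0.905 CPM) were expressed and 9 were silent, 3 of these (Sox11, Sox17 and Sox21) at 0 counts. Gata4, Gata5 and Gata6, factors of heart and gut, had 2, 0 and 1 counts.

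The nuclear receptor that is deleted in the other arm of the series, Esrrg (chromosome 1, 187608791 to 188214885, plus strand), was at 0 counts in all 5 libraries, which allows up to 0.0371 CPM over the pooled libraries. Its relative Esrra stood at 34.02, 34.9, 37.4, 37.9 and 38.96 CPM in WT 1 to WT 5, and Esrrb had 1 count in all. Of the coactivators that these receptors share, Pprc1 (63.2 ± 4.77 TPM) and Ppargc1b (10.4 ± 1.39 TPM) were expressed, while Ppargc1a had 9 counts in all. Among the wider nuclear receptors, Nr4a1, an early response gene of T cell receptor signalling (256 ± 199.8 TPM), the oxysterol receptor gene Nr1h2 (137 ± 6.51 TPM), Rarg (108 ± 3.08 TPM) and Rxrb (94.9 ± 3.88 TPM) were highest per length. Nr4a1 rested on WT 1 for part of this level, with 167 ± 26.1 TPM without it. The glucocorticoid receptor gene Nr3c1 was expressed at 80.5 ± 4.61 TPM. Ppara and Esr2 were silent, and Rarb and Rxrg had 0 counts.

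All 8 receptor genes of the common gamma chain list were expressed. In this list, Il2rb had 1059.8 ± 63.7 TPM, Il2ra 544 ± 54.4 TPM and Il2rg 527 ± 13.8 TPM, so all 3 chains of the interleukin-2 receptor were abundant. The interleukin-7 receptor gene Il7r, typically low on Treg cells, had 144 ± 16.5 TPM, below Il21r (328 ± 12.7 TPM) and Il4ra (166 ± 6.57 TPM). Il2rb stood at 1137, 1337, 1281, 1207 and 1221 CPM in WT 1 to WT 5, with WT 1 lowest as for Il2ra. Of the other cytokine receptors, Il27ra (419 ± 20.02 TPM), Ifngr1 (235 ± 7.78 TPM), Il6st (166 ± 13.6 TPM) and Il6ra (159.8 ± 7.24 TPM) led. The interleukin-12 and 23 receptor chains Il12rb2 and Il23r summed to 55 and 41 counts, and the type III interferon receptor gene Ifnlr1 had 0. Of the interleukin-1 family, Il18r1 made up 55.1% ± 2.12 of the summed TPM, and Il1rl1, the receptor of interleukin-33 on tissue Treg cells, stood at 20.5 to 27.6 CPM.

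For transforming growth factor beta, Lrrc32, which anchors the latent cytokine on the Treg surface, stood at 425, 515, 456, 449 and 419.6 CPM in WT 1 to WT 5. It made up 54.4% ± 2.31 of the summed TPM of its list, ahead of the receptor genes Tgfbr2 (21.7% ± 1.51) and Tgfbr1 (11.3% ± 0.622), and Bmpr1b had 0 counts. In the costimulation and inhibition list 14 of 16 genes were expressed, led by Ctla4, Cd96 (424 ± 11.9 TPM), Tigit (281 ± 31.7 TPM) and Vsir, listed as 4632428N05Rik (256 ± 5.35 TPM). Havcr1 had 1 count in all and was silent. In the TNF receptor family, Cd27 (658 ± 50.98 TPM), Tnfrsf4, the receptor OX40 (596 ± 54.7 TPM), Tnfrsf18, the receptor GITR (499 ± 29.9 TPM), and Tnfrsf1b (342 ± 21.6 TPM) led, Ngfr was silent, and Eda2r had 0 counts.

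Among homing receptors, Ccr7, the lymph node homing receptor, stood at 226, 239, 291, 302 and 299 CPM in WT 1 to WT 5 and made up 71.5% ± 4.405 of the summed TPM of the CC receptors. The receptors of effector and tissue Treg cells Ccr8 (9.3997% ± 2.17), Ccr4 (8.88% ± 1.22) and Ccr6 (6.57% ± 0.706) followed. Ccr7 was lowest in WT 1 and next lowest in WT 2. Among CXC receptors, Cxcr3 (149.9 ± 10.8 TPM), Cxcr4 (140.2 ± 46.7 TPM) and Cxcr5 (84.7 ± 10.7 TPM) were expressed at levels whose SDs overlap for the first 2, and Cxcr1, Cxcr2, Ackr1 and Ackr2 were silent with 3, 2, 2 and 3 counts. The integrin list of 26 genes had 21 expressed, led by Itgb7 (1192 ± 33.2 TPM), Itgb2 (873 ± 13.8 TPM) and Itgal (729.7 ± 28.5 TPM), the last 2 forming the receptor LFA-1. Itgb6 had 0 counts.

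Of the lipid and purine receptors, S1pr1, which lets lymphocytes leave lymphoid organs, stood at 502, 512, 568, 563 and 539 CPM in WT 1 to WT 5. It led at 648 ± 41.2 TPM, ahead of S1pr4 (284 ± 18.9 TPM), P2ry10 (242 ± 12.2 TPM) and the extracellular ATP receptor gene P2rx7 (185 ± 6.75 TPM). Gpr83, a receptor enriched in Treg cells and named after its values were seen, stood at 145, 207, 211, 201 and 223 CPM in WT 1 to WT 5, with WT 1 apart on the low side. S1pr3 and Adora1 were silent. In the sensor list, Tmem173, which encodes STING (341 ± 25.6 TPM), Tlr1 (184 ± 20.8 TPM), Nod1 (96.3 ± 4.78 TPM) and Ddx58 (77.8 ± 5.83 TPM) led, Tlr11 was silent, and Tlr5 had 0 counts. Fc and complement receptors were the receptor list with the fewest expressed members, 1 of 10, namely the signalling chain Fcer1g at 1.28 to 3.08 CPM. Fcer1a, C3ar1 and Fcer2a were silent and C5ar1 had 0 counts.

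**Figure D2:**
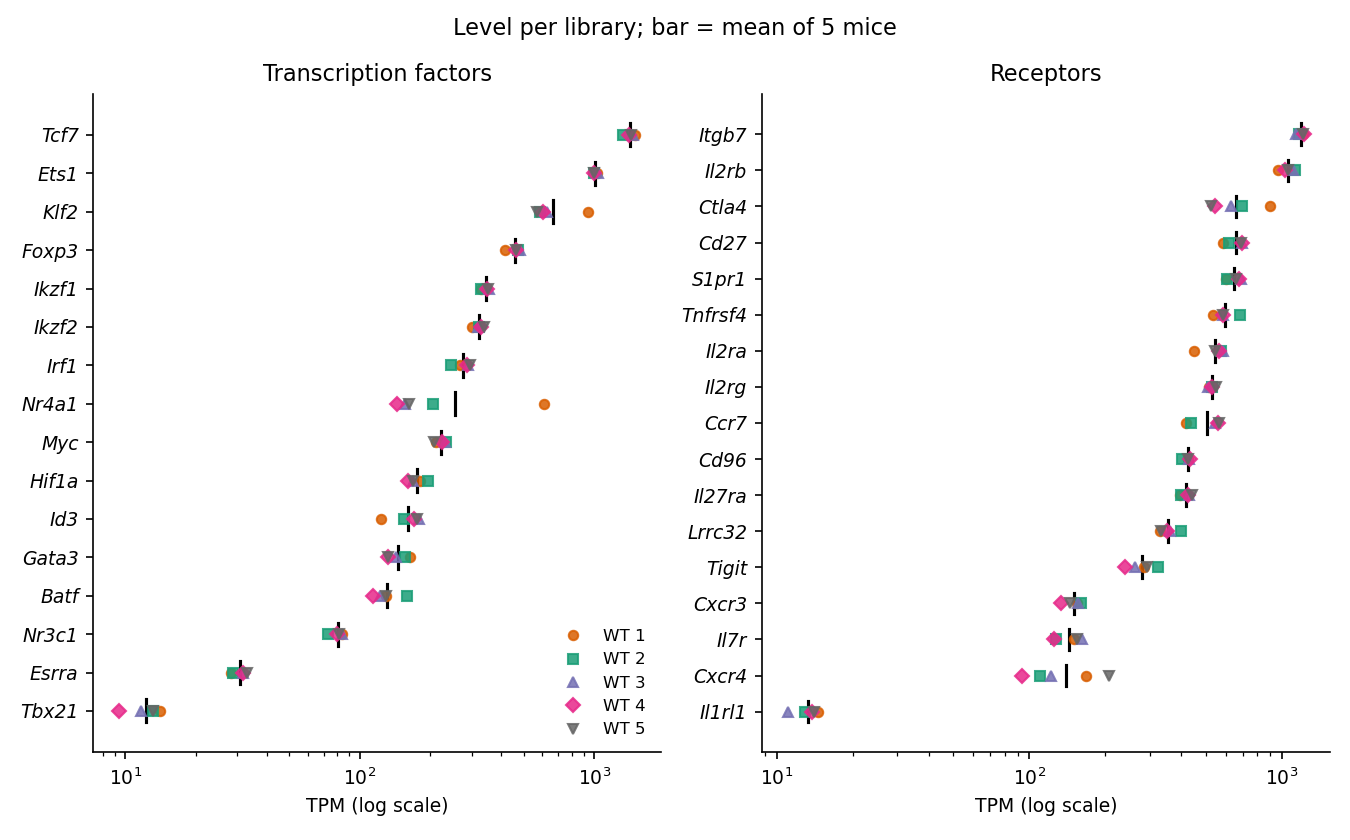
Length-scaled level (TPM, log axis) of selected transcription factors (left) and receptors (right) in each of the 5 control libraries (points, 1 per mouse) with the mean (bar). The choice spans high and low levels, and the AP-1 genes are not drawn. Most genes hold their place across mice, and Klf2, Nr4a1 and Ctla4 show WT 1 above the others.

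In several metabolic families 1 form made up nearly all of the summed TPM. In glucose uptake, Slc2a3 (66.7 ± 3.45 TPM) and Slc2a1 (53.3 ± 2.69 TPM) led, and Slc2a4, the insulin-responsive transporter of muscle and fat, Slc2a5 and Slc2a10 had 0 counts. Slc2a3 stood at 129, 133, 142, 126 and 129 CPM in WT 1 to WT 5. Hk1 made up 93.6% ± 0.438 of hexokinase TPM and Hk2, the form induced on activation, 4.92% ± 0.341. Hk1 stood at 212, 225, 203, 213 and 211 CPM in WT 1 to WT 5. Phosphofructokinase was instead shared, with Pfkp at 35.6% ± 1.29, Pfkl at 33.1% ± 0.998 and Pfkm at 31.3% ± 0.692, and Pfkl came first with the longest transcript as length. Pfkfb3 made up 65.8% ± 1.83 of its regulators. Aldoa made up 98.3% ± 0.266 of the aldolases, Pkm 99.9% ± 0.114 of the pyruvate kinases and Ldha 81.4% ± 1.73 of the lactate dehydrogenases, with Ldhb at 18.1% ± 1.77. The enolases were split between Eno1 (58.6% ± 1.92) and Eno3 (38.3% ± 1.95), a form best known from muscle. This split depended on the length used, since Eno1 made up 76.5% with the longest transcript as length. The testis forms Pgk2, Gapdhs and Ldhc had 5, 0 and 1 counts.

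Levels along glycolysis were uneven. Ldha (443 ± 25.1 TPM), Pkm (393 ± 30.6 TPM) and Aldoa (377 ± 24.5 TPM) were the highest, followed by Gpi1 (233 ± 9.34 TPM) and Gapdh (199 ± 10.3 TPM), whereas Pgk1 (82.1 ± 10.3 TPM), Tpi1 (67.8 ± 8.76 TPM) and Pgam1 (18.2 ± 1.61 TPM) were lower. Gapdh, Pgk1, Tpi1 and Pgam1 are known to have many near-identical pseudogene copies, and reads shared with such copies cannot be assigned with certainty here. For lactate export, the transporter gene Slc16a1 had 30.3 ± 2.92 TPM and Slc16a3 8.28 ± 2.201 TPM. At the entry of pyruvate into mitochondria, Pdha1 had 205 ± 7.06 TPM, and among the inhibitory kinases Pdk1 (76.8 ± 8.38 TPM) led Pdk3 (40.5 ± 2.38 TPM) and Pdk2 (22.5 ± 0.988 TPM), while Pdk4, the form tied to fasting, had 0 counts. In the pentose phosphate pathway 8 of 9 genes were expressed, led by Taldo1 (201 ± 10.5 TPM) and Tkt (117 ± 9.17 TPM).

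The tricarboxylic acid cycle was expressed almost in full, 21 of 22 genes, with Ogdhl, a tissue-restricted form, at 19 counts in all. Sdha (246 ± 11.8 TPM), Mdh1 (203 ± 10.4 TPM), Mdh2 (195 ± 7.83 TPM) and Sdhd (189 ± 5.398 TPM) led, with Mdh2 first where the longest transcript served as length. The median CV of these 21 genes was 4.16%, and 13 of them were highest in WT 2, as were 2883 of all expressed genes (25.3%). None of the 21 had a library apart, beside 7.76% of all expressed genes. Respiratory chain subunits were of the widely expressed kind: Cox4i1 stood at 186, 210.2, 179, 194 and 183 CPM in WT 1 to WT 5 and its alternative Cox4i2 had 0 counts, Cox6a1 had 387 ± 22.3 TPM and the muscle form Cox6a2 1 count in all, and Ndufa4l2 had 0. The uncoupling protein gene Ucp2 stood at 796, 907, 853, 917 and 905 CPM in WT 1 to WT 5, lowest in WT 1. Of the adenine nucleotide carriers, Slc25a5 (484 ± 31.4 TPM) exceeded Slc25a4 (117 ± 11.6 TPM), and Slc25a31, the testis form, was silent. Ckb (16.1 ± 3.01 CPM) was the only creatine kinase gene expressed, since Ckm had 1 count in all and Ckmt2 had 0.

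For amino acids, the glutamine carrier gene Slc1a5 stood at 314, 322, 316, 319.8 and 339 CPM in WT 1 to WT 5. Its CV across the mice was 3.12%.

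Fatty acid genes of both directions were expressed. Of the carnitine palmitoyltransferases, which bring fatty acids into mitochondria, Cpt1a stood at 59.9, 66.6, 56.6, 62.5 and 61.2 CPM in WT 1 to WT 5, whereas the muscle form Cpt1b and the brain form Cpt1c summed to 24 and 28 counts. In beta-oxidation 15 of 17 genes were expressed, led by Acaa2 (123 ± 6.59 TPM), Acadl (91.9 ± 3.05 TPM), Acads (74.8 ± 1.89 TPM) and Acadvl (68.3 ± 14.1 TPM), with Hadha first where the longest transcript served as length. Acadvl stood at 54.9, 32.3, 50.5, 56.6 and 55.04 CPM in WT 1 to WT 5, apart on the low side in WT 2 with 0.588 times the median of the other libraries, and it had 74.5 ± 3.39 TPM without WT 2. Acsl5 made up 61.2% ± 0.486 of the acyl-CoA synthetases. In synthesis, Elovl5 (211 ± 5.51 TPM), the citrate lyase gene Acly (208 ± 6.0003 TPM), the desaturase gene Scd2 (138 ± 11.5 TPM) and Fasn (91.4 ± 4.47 TPM) led, and Scd1, the main liver desaturase, summed to 37 counts. The fatty acid uptake genes Cd36 and Fabp4 summed to 22 and 5 counts and Fabp3 had 0. In the ketone list, Oxct1, which starts ketone use, stood at 75.97, 82.05, 80.02, 78.5 and 82.6 CPM in WT 1 to WT 5. Of the catalytic subunits of the energy sensor AMPK, Prkaa1 stood at 62.7 ± 2.56 CPM and Prkaa2 had 2 counts in all. For glucose synthesis, the mitochondrial form Pck2 stood at 38.7 ± 0.361 CPM, and Pck1 and Fbp1 had 6 and 1 counts.

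**Figure D3:**
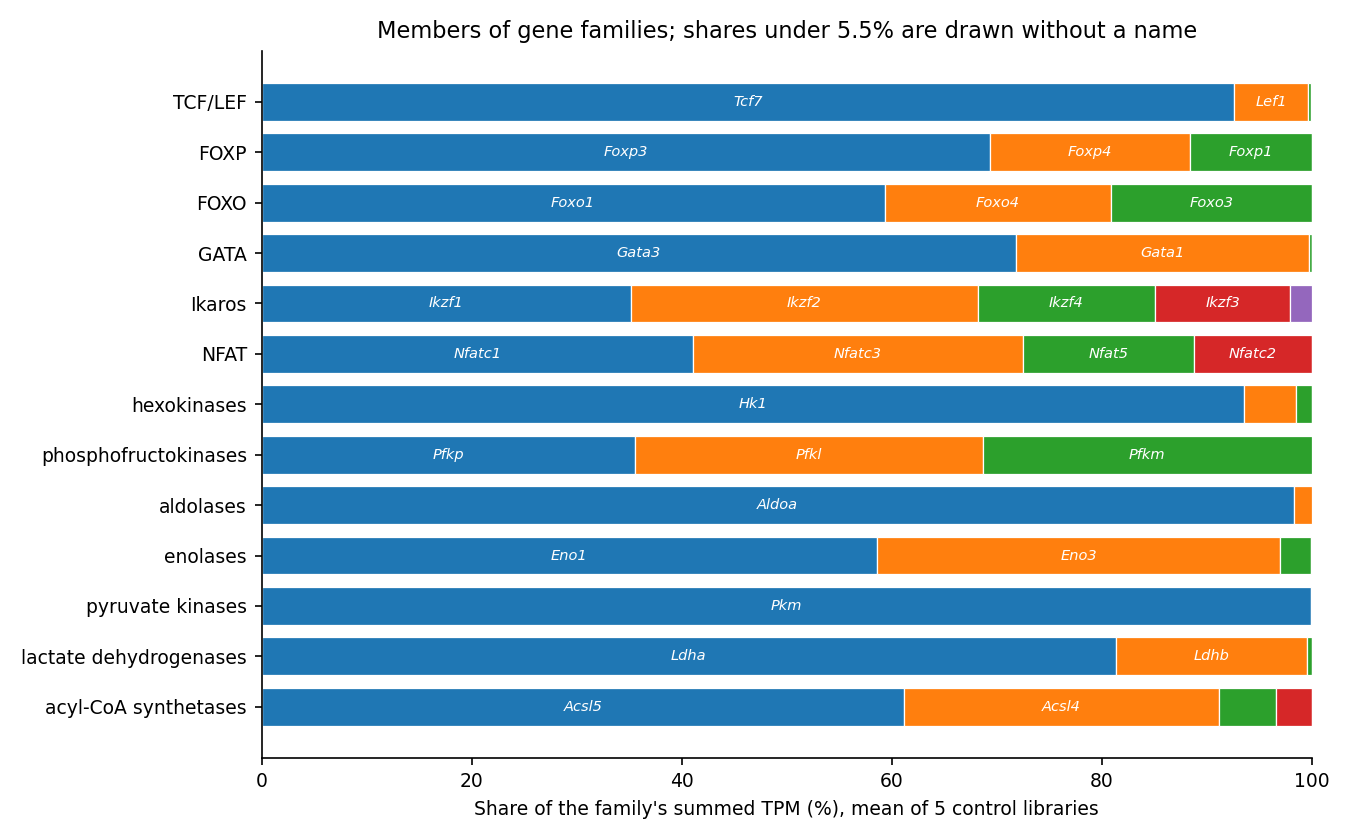
Share of each family's summed TPM (percent, mean of 5 control libraries, bars stacked to 100) held by each member in 13 families of transcription factors and metabolic enzymes. Hk1, Aldoa, Pkm, Ldha and Tcf7 take most of their families, and phosphofructokinase and Ikaros are shared.

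The spread among the 5 mice was small for most genes. Over the expressed genes the median CV was 6.59%, beside 4.18% that counting alone would give, and 70.2% of genes had a CV under 10%. For genes of 100 to 1000 CPM the median CV was 4.01% against 1.87% from counting. The common biological CV by edgeR was 0.0934. The variance over the mice exceeded 3 times the counting variance for 4521 of 11381 expressed genes (39.7%). The steadiest genes with a mean of at least 20 CPM were Adrbk1, a kinase of G protein-coupled receptors (752, 747, 750.2, 751 and 752 CPM in WT 1 to WT 5), the lysosomal channel gene Tpcn2, the recombination gene Rad51d and the splicing factor gene U2af2. The CVs of Adrbk1 (0.253%) and Tpcn2 (0.356%) were below the 0.908% and 4.92% of counting alone, so this end of the order does not rank genes by the spread between mice.

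**Figure D4:**
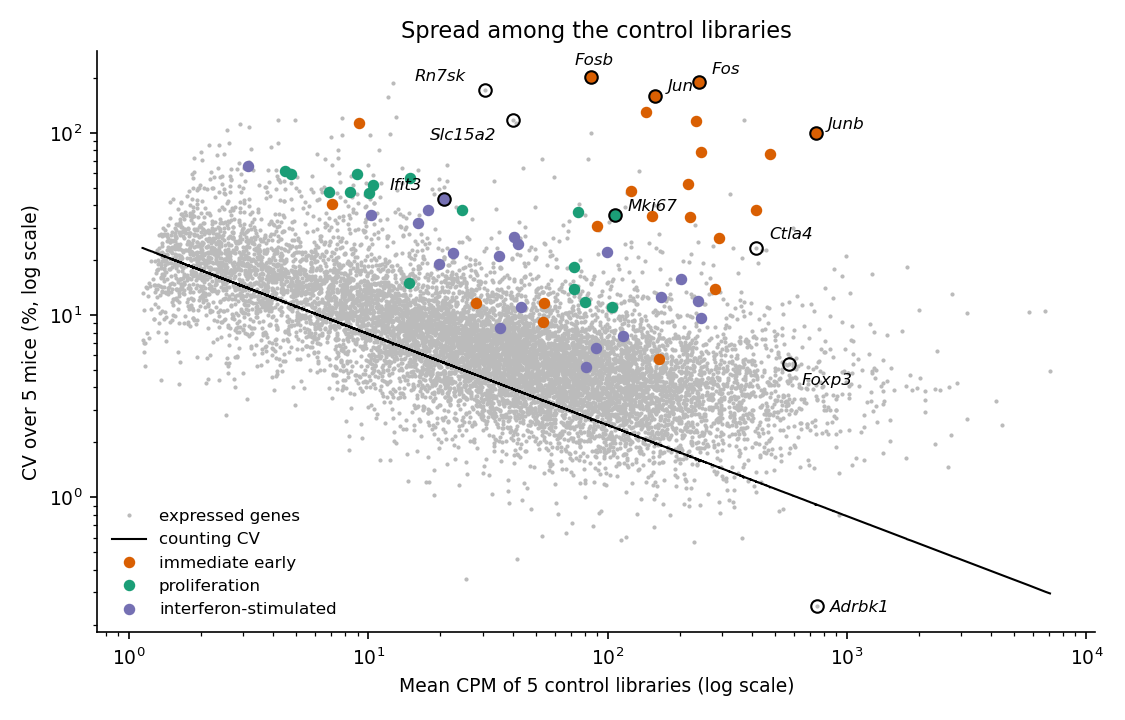
Coefficient of variation of CPM over the 5 control libraries (percent, log axis) against mean CPM (log axis) for 11381 expressed genes (grey), with the counting CV as a line. Immediate early (orange), proliferation (green) and interferon-stimulated (purple) genes are marked, with Fosb and Fos at the top at 202% and 189.5% and Adrbk1 below the line at 0.253%.

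Genes with 1 library apart were a small share, and the gap was not always large. In 883 expressed genes (7.76%) 1 library stood apart from the other 4, by a gap to the next value of more than 0.71 of the whole range (Dixon's ratio), which chance gives in about 1 in 20 genes. WT 1 was the high one in 197 genes (1.73%) and WT 2 in 297 (2.61%), against 46, 41 and 39 genes for WT 3, WT 4 and WT 5. The level was 2 times the median of the other libraries or more in 49 of the 197 genes and 76 of the 297. Over genes, WT 3, WT 4 and WT 5 differed from each other by a chi-square per degree of freedom of 2.60 to 2.96, and from WT 1 by 15.2 to 16.7, so no 2 libraries were duplicates. The Spearman correlations across genes, which are not independent replicates, ran from 0.9925 to 0.9976.

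In WT 1 the immediate early genes were high. Of 24 listed genes 22 were expressed, and WT 1 was highest in 18, beside 18.9% of all expressed genes. It stood apart on the high side in 17, beside 1.73% of all expressed genes. Fosb stood at 393, 13.05, 8.28, 6.81 and 4.98 CPM in WT 1 to WT 5, Fos at 1057, 71.9, 29.1, 25.8 and 20.99 CPM in WT 1 to WT 5 and Jun at 610.3, 59.1, 46.9, 42.2 and 31.6 CPM in WT 1 to WT 5. These genes encode subunits of the AP-1 transcription factor, and WT 1 had 52.1, 38.5 and 13.7 times the median of the other 4 mice. Junb, a further AP-1 subunit, stood at 2032, 614, 407, 351 and 287 CPM in WT 1 to WT 5, and WT 2 was second in all 4 genes. Jund, also of AP-1, was abundant in every library, at 1511, 865, 787, 736 and 686 TPM in WT 1 to WT 5. The feedback genes of signalling Dusp1 (716, 148, 118, 87.2 and 102 CPM in WT 1 to WT 5), Tnfaip3 (1148, 219, 160.5, 164 and 157 CPM in WT 1 to WT 5) and Zfp36 (1127, 356, 321, 299.9 and 273 CPM in WT 1 to WT 5) behaved alike. Over the 22 expressed genes the median ratio of WT 1 to the median of the other libraries was 2.15, beside 0.979 over all expressed genes. Without WT 1 the median CV of the list fell from 44.2% to 11.9%. Not every early gene took part: Egr2 stood at 46.6, 56.8, 53.7, 51.2 and 59.2 CPM in WT 1 to WT 5 and Myc at 157, 175, 170.03, 166 and 152 CPM in WT 1 to WT 5. Of 7 expressed heat shock genes none stood apart, beside 7.76% of all expressed genes, too few genes to differ from that share. Among the 7, WT 1 was highest in 3, beside 18.9% of all expressed genes. Klf4 stood at 55.1, 3.702, 1.46, 1.51 and 1.45 CPM in WT 1 to WT 5.

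WT 1 also had the highest levels of several transcripts of other cells and of the mitochondrial genome. Lyz2, the lysozyme gene of macrophages and neutrophils, stood at 32.8, 2.85, 7.67, 12.3 and 5.61 CPM in WT 1 to WT 5, and Cd68 at 7.76, 3.28, 4.02, 3.602 and 3.53 CPM in WT 1 to WT 5. WT 1 was highest in 7 of the 8 macrophage genes, beside 18.9% of all expressed genes. The median CV of the 8 was 39.6% with WT 1 and 34.1% without it. The lists of granulocyte and dendritic cell markers had 1 expressed member each, Mpo at 1.198 to 3.71 CPM and Zbtb46 at 1.52 to 2.19 CPM. The same library had the most mitochondrial counts: the mitochondrial genome held 2.01% of counts in WT 1 and 1.49% to 1.62% in the others. The effector cytokine gene Il10, at 13.9, 8.86, 2.98, 3.54 and 3.66 CPM in WT 1 to WT 5, was higher in WT 1 and WT 2 than in the other 3 libraries. The part of these transcripts in the early gene values of WT 1 was not tested.

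In WT 2 the cell division genes were high. All 16 listed genes were expressed, and WT 2 was highest in 15, beside 25.3% of all expressed genes. It stood apart on the high side in 14, beside 2.61% of all expressed genes. Mki67 stood at 94.2, 174, 78.1, 101 and 90.4 CPM in WT 1 to WT 5, the mitotic cyclin gene Ccnb2 at 7.88, 20.03, 7.31, 9.103 and 7.94 CPM in WT 1 to WT 5 and the spindle checkpoint gene Cdc20 at 7.64, 18.4, 7.795, 8.58 and 7.94 CPM in WT 1 to WT 5. In each of the 3 genes the other 4 libraries lay close together, and WT 2 had 1.89, 2.53 and 2.34 times their median. The median ratio of WT 2 to the median of the others was 2.21 over the 16 genes, and their median CV was 42.1% with WT 2 and 10.8% without it. The same ratio was 0.9996 over all expressed genes. Pcna, the sliding clamp of DNA replication, was the 1 gene not highest in WT 2, at 119, 111, 89.9, 100.01 and 98.2 CPM in WT 1 to WT 5, with WT 1 first.

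Genes of effector and activated Treg cells were also often highest in WT 2. This held for 15 of 24 expressed members, beside 25.3% of all expressed genes, but WT 2 stood apart in only 2 of them, and the summed level of the list was 2069.8 CPM there and 1691 to 1776 CPM in the other libraries. The calcium-binding protein gene S100a6 stood at 35.4, 94.8, 27.5, 32.3 and 31.5 CPM in WT 1 to WT 5 and the costimulatory receptor gene Tnfrsf9 at 129, 169.6, 135, 129 and 132 CPM in WT 1 to WT 5, the 2 genes with WT 2 apart. Per length the list was led by S100a10 (682 ± 37.02 TPM), Lgals1, which encodes galectin-1 (428 ± 63.6 TPM), S100a11 (289.7 ± 18.6 TPM) and Tigit. Its median CV was 11.97% with WT 2 and 10.3% without it. The cytotoxic gene Gzmb, at 4.15, 6.31, 2.98, 3.67 and 3.72 CPM in WT 1 to WT 5, and the growth factor gene Areg, with 156 counts in all, were near the lower threshold.

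WT 2 differed in detection as well. It had a count for 19384 genes, beside 17681 to 18364 in the other libraries, and 1153 genes were counted in WT 2 alone. Pseudogenes held 0.633% of its counts and 0.405% to 0.444% of the others. The 16 Y-linked genes of the table, which a female lacks, had 4, 44, 8, 3 and 13 counts in WT 1 to WT 5. Of the 4 on the sex-linked list, Eif2s3y had 16 of its 19 and Ddx3y 7 of its 7 counts in WT 2, and Kdm5d and Uty had 0 in every library. Xist, the RNA of the inactive X chromosome, stood at 1725, 1966, 1816, 1832 and 1847 CPM in WT 1 to WT 5. Of the 42 counts of Hoxa9, a gene chosen after its values were seen, 37 were in WT 2. The part of such transcripts in the cell division values of WT 2 was not tested.

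In WT 4 the interferon-stimulated genes were high. All 20 listed genes were expressed and 10 had WT 4 apart on the high side, beside 41 of all expressed genes (0.360%). No other library stood apart in any of the 20. Ifit3 stood at 16.7, 14.4, 19.4, 36.4 and 16.3 CPM in WT 1 to WT 5, Mx1 at 13.6, 12.9, 13.8, 25.1 and 14.8 CPM in WT 1 to WT 5 and Isg15 at 20.3, 19.8, 19.2, 31.2 and 22.6 CPM in WT 1 to WT 5. These antiviral genes differed by less than the early genes of WT 1, with 2.21, 1.83 and 1.56 times the median of the other mice, and the median over the list was 1.49. The median CV of the list was 20.1% with WT 4 and 7.26% without it. The summed level of the macrophage genes was also higher in WT 4 than in WT 2, WT 3 and WT 5, at 47.02 CPM, although not every gene was, since Cd68 was higher in WT 3. Their part in these values was not tested. Irf7, a transcription factor gene of the interferon response, stood highest there as well, at 87.1, 81.7, 93.8, 138 and 98.03 CPM in WT 1 to WT 5. Ifit2, outside the naming rule, had its highest value in WT 3, at 79.6, 78.8, 86.6, 84.4 and 76.5 CPM in WT 1 to WT 5.

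WT 3 and WT 5 stood apart in few genes, but strongly in some. Slc15a2, a transporter of small peptides, stood at 21.3, 12.6, 125, 19.2 and 22.9 CPM in WT 1 to WT 5, 6.17 times the median of the others in WT 3. Rn7sk, the small nuclear RNA that restrains transcription elongation, stood at 7.41, 6.86, 7.37, 6.42 and 125 CPM in WT 1 to WT 5, 17.6 times that median in WT 5. Hbb-bs was also apart in WT 5, at 2.61, 2.18, 2.31, 1.77 and 6.62 CPM in WT 1 to WT 5.

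**Figure D5:**
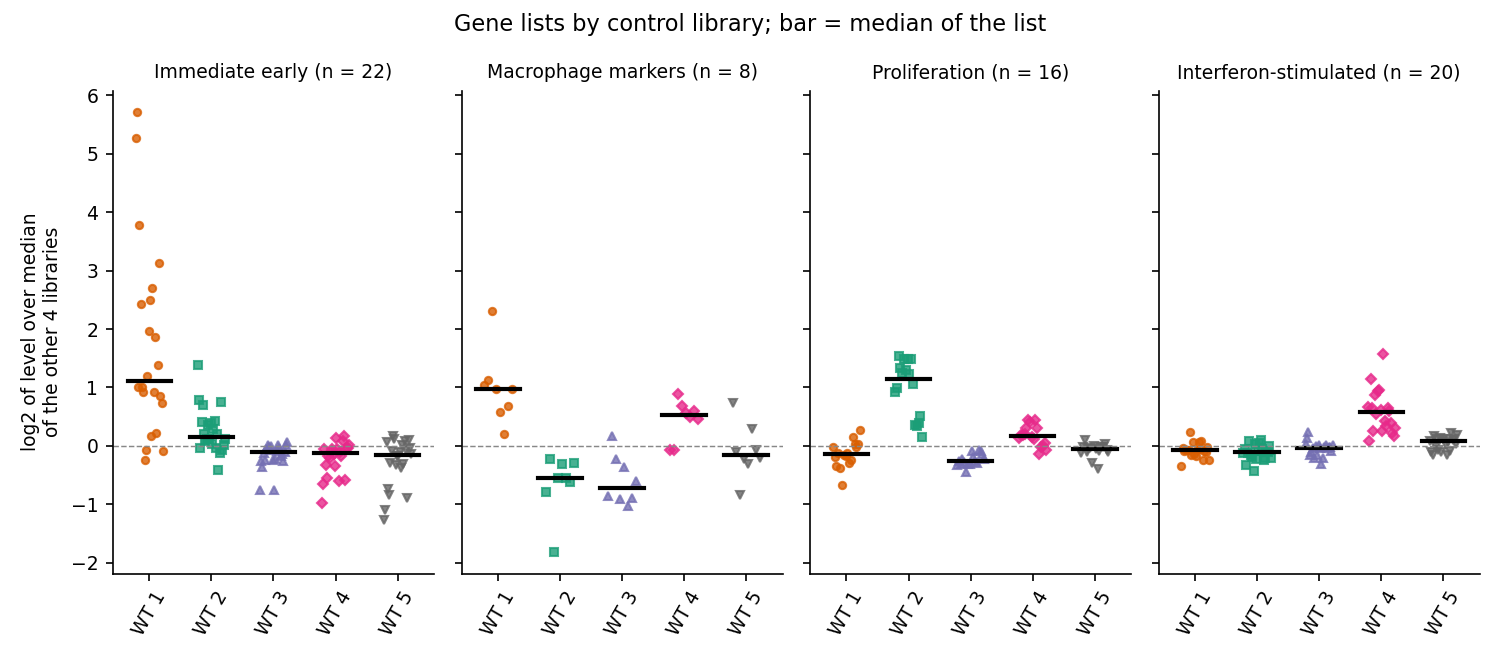
Level of each listed gene in each control library relative to the median of the other 4 libraries (log2 scale, points), for expressed genes of 4 lists, with the median of the list as a bar. WT 1 leads the immediate early and macrophage genes, WT 2 the proliferation genes and WT 4 the interferon-stimulated genes.

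The promoters of genes that moved together in 1 library were searched for motifs known for such programs. Promoter sequences of RefSeq were matched by symbol to 14135 genes of the table (GRCm38.p6), and the 250 bases before each start were searched on both strands. The core of the interferon-stimulated response element, GAAANNGAA or its reverse complement, was found in 4 of the 7 interferon genes with WT 4 apart that have an entry, and in 6.43% of all promoters. It was also found in 4 of the 14 early genes with WT 1 apart that have an entry, and in 0 of 12 cell division genes with WT 2 apart. The promoters of Ifit3, Isg15 and Rsad2 are shown because they carry it, with each match in capitals and the other bases in lower case. Ifit3 holds 3 separate matches, Isg15 3 that overlap and Rsad2 1.
Ifit3, chr19:34583279-34583528, plus strand: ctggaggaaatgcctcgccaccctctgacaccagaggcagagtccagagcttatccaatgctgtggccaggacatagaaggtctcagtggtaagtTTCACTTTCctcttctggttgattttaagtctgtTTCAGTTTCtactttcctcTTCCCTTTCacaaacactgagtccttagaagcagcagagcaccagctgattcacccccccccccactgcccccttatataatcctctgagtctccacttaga
Isg15, chr4:156200819-156201068, minus strand: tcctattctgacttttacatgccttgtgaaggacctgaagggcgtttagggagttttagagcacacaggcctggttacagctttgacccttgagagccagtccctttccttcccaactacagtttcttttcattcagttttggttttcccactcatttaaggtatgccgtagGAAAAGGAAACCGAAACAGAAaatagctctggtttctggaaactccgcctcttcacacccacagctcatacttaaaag
Rsad2, chr12:26456453-26456702, minus strand: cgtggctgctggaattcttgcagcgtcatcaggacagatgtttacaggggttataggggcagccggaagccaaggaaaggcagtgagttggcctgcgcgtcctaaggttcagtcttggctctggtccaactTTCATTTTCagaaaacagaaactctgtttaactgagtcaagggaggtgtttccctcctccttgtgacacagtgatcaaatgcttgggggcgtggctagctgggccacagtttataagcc

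The CCAAT box was found in 11 of the 12 cell division genes with WT 2 apart that have an entry, and in 35.5% of all promoters. The cell cycle genes homology region, TTTGAA, was found in 6 of the 12, and in 11.8% of all. In the early genes with WT 1 apart these motifs were found in 3 and 1 of 14, and in the interferon genes with WT 4 apart in 1 and 0 of 7. Both motifs are in capitals in the promoters of Ccnb2 and Cdc20, which hold the 2 kinds together.
Ccnb2, chr9:70421555-70421804, minus strand: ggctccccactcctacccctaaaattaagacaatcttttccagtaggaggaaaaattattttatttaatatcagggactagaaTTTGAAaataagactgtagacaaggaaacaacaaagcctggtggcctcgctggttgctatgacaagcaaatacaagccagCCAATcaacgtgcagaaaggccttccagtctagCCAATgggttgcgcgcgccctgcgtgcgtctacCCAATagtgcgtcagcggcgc
Cdc20, chr4:118437344-118437593, minus strand: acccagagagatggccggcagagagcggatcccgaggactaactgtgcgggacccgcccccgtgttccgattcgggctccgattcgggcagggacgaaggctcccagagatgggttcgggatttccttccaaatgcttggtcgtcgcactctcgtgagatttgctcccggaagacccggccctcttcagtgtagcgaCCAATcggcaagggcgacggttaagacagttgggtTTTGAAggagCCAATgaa

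Of the 14 early genes with WT 1 apart that have an entry, the cyclic AMP response element TGACGTCA was found in 2 (Dusp1 and Ppp1r15a) and in 2.38% of all promoters. The CArG box, the site of serum response factor, was found in 1 (Zfp36) and in 1.24% of all. The cell division genes had these motifs in 1 and 0 of 12 and the interferon genes in 0 of 7 each. The promoters of Dusp1 and Zfp36 are shown with these motifs in capitals, and a match is a description of the sequence.
Dusp1, chr17:26508473-26508722, minus strand: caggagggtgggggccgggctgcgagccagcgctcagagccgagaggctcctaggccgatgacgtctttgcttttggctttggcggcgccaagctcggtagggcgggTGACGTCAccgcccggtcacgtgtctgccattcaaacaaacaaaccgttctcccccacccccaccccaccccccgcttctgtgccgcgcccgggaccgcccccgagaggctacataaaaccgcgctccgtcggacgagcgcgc
Zfp36, chr7:28379229-28379478, minus strand: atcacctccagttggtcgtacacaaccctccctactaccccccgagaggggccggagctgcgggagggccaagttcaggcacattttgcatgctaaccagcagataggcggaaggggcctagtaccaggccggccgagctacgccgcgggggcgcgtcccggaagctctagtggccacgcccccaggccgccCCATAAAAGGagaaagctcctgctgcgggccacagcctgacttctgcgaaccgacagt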

How the data were processed

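RNA sequencing counts of sorted splenic Treg cells from 5 control mice were described. The deposited table holds counts, whole numbers of reads per gene as the authors deposited them. STAR 2.7 and DESeq2, with the build mm10, are named in the submitters' processing notes, with no role or order. Which program counted the reads, over which gene models and with which strand option, the labels and the file header do not say.

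Samples were grouped by the label WT. CPM is a gene's count over the library total. TPM was computed from the counts and the union of exons of each gene in GENCODE M21 (mm10), matched by symbol, of 26683 genes 24788 by name and 617 through a synonym. The 1278 others held 0.341% of counts and have no TPM. Of 780 genes in 82 hand-written lists, 37 were not analysed here. The lists and the libraries were chosen with earlier results of these data known, so the counts over lists are descriptions and no test was made. The spread was described by the SD and CV over 5 mice, the CV that counting alone would give, the variance over counting variance (over 3 fold), Dixon's ratio (0.71 for 5 libraries, 0.829 for 4) and the common biological CV of edgeR 4.0.16 with TMM factors (R 4.3.3). These measures were tested on simulated data. Library totals of 15269014 to 16874301 counts put the limit for a count of 0 at 0.178 to 0.196 CPM in 1 library. No molecular identifiers are named for these libraries, so limits and counting CVs cover counting error only.

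The genes named are the 4 markers, the 20 highest by CPM and by TPM, the 4 highest, the silent and, in isoform families, the other members of each list, and the 12 most and 12 least variable with a mean of at least 20 CPM. Chosen after their values were seen were Alas2, Areg, Ccnb2, Cd36, Cd3e, Cd4, Cdc20, Cdh5, Egr2, Gpr83, Gzmb, Hoxa9, Ifit2, Ifit3, Il10, Il12rb2, Il23r, Il4ra, Il7r, Isg15, Mki67, Ms4a1, Mx1, Nr3c1, Ogdhl, Pparg, Rsad2, S100a6, Scd1, Tbx21, Ppp1r15a and Tnfrsf9. Alternatives were TMM and the size factors of DESeq2 1.42.0, other filters and thresholds, the longest transcript as length, and leaving out each library. Leaving out WT 1 and WT 2 together, and leaving out the library on which a level rests, were chosen after seeing the data.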

Additional observations from a re-analysis of the deposited data

Results flagged for a closer look

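In each of the genes given here 1 library stood apart from the other 4 by Dixon's ratio, which chance gives in about 1 in 20 genes. The values are that library's level over the median of the other 4, and no explanation was tested.

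WT 1 was high in the AP-1 genes Fosb (52.1), Fos (38.5), Jun (13.7) and Junb (5.36) and in Klf4 (37.1), Tnfaip3 (7.09), Dusp1 (6.51), Nr4a1 (3.902), Zfp36 (3.63), Klf6 (2.596), Klf2 (1.57) and Smad7 (1.32). It was also high in the macrophage gene Cd68 (2.18), in mt-Co1 (1.24) and, by little, in Ptprc (1.05). It was low in Gpr83 (0.696), Actb (0.787) and Ikzf4 (0.8403). The mitochondrial genome held 2.01% of its counts.

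WT 2 was high in S100a6 (2.98), Ccnb2 (2.53), Cdc20 (2.34), Mki67 (1.89), Tnfrsf9 (1.2999) and Tnfrsf1b (1.16). Tpi1 (1.34), Ldhb (1.29), Pkm (1.19), Tkt (1.19) and Aldoa (1.16), genes of sugar metabolism, were high there by smaller ratios. Not all listed genes of sugar metabolism were, since Pfkl stood at 0.998, Pfkp at 0.984 and Eno3 at 0.960. WT 2 was low in Acadvl (0.588) and Hmha1 (0.916). In WT 2 pseudogenes held 0.633% of counts, protein coding genes 97.5% and expressed genes 99.5%, the first above and the other two below the other libraries.

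WT 4 was high in Ifit3 (2.21), Mx1 (1.83), Isg15 (1.56) and Irf7 (1.52). WT 3 was high in Slc15a2 (6.17). WT 5 was high in Rn7sk (17.6) and Hbb-bs (2.94) and slightly low in Trbc2 (0.959).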

How the results depend on the processing

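Leaving out each library in turn kept the number of genes expressed between 11421 and 11439 and the shares of counts within 1 SD. The median CV ran from 5.82% to 6.74% and the common biological CV from 0.0630 to 0.101, both lowest without WT 1, and the genes over 3 times counting variance from 3610 to 4924. Without WT 1 and WT 2 together, with expressed genes called anew, the median CV was 4.56% and 2326 genes exceeded 3 times counting variance. With no filter on low counts the median CV was 24.5%, the common biological CV 0.164 and the genes with 1 library apart 5163, since genes with few counts then enter. A filter of 10 CPM lowered the median CV to 5.37%. Under TMM and DESeq2 size factors the levels of the 60 genes given in every library were 0.993 to 1.01 times those reported, and 927 and 932 genes had 1 library apart. Thresholds of 0.5 and 2 CPM gave 12103 and 10607 expressed genes. The longest transcript as length changed the leading member in 10 of 60 lists and no length scaling in 17. Without WT 1 the mean of Fosb was 0.0971 times that over all 5 libraries, and without WT 5 that of Rn7sk was 0.228 times. No paired analysis was possible because the results come from 1 group and no test. The sorted cells are bulk samples, and a count of 0 in 1 library allows up to 0.178 to 0.196 CPM.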
